A study of Mus musculus with 6 samples.

Results

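Adarb2 nuclei were chosen by counts of unique molecular identifiers (UMIs) as GABAergic nuclei with high Adarb2. A nucleus was taken if it held at least 3 UMIs of Gad1 and Gad2 together, at least 10 of Adarb2, at most 1 of Lhx6, at most 2 of Sst, at most 1 of Rgs9 and at most 1 of Slc17a7 and Slc17a6 together, and if mitochondrial genes gave under 10% of its UMIs. Of 75867 nuclei kept, 1697 met this rule, which was 2.24% (95% exact Clopper-Pearson interval, 2.13 to 2.34%). Within them, 159 nuclei held at least 1 Vip UMI and are called Vip positive, and 1538 held none and are called Vip 0.

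The nuclei came from frozen, dissected forebrain of littermate mice at postnatal day 16, 3 WT and 3 Npc1-/-, and none of the mice was treated. Npc1-/- mice carried the Npc1-nih allele and were F1 hybrids of Npc1+/- parents on the BALB/cJ and C57BL6/J backgrounds. The study used these mice to ask how brain cells differ early in Niemann-Pick type C disease, in which loss of the NPC1 protein traps cholesterol in lysosomes. The barcodes carry a library number from 1 to 6 that matches no mouse in the labels, so WT and Npc1-/- could not be compared, libraries are named by number, and no test was run.

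Cortical GABAergic interneurons are born in the ventral forebrain and migrate to the cortex. Those of the caudal ganglionic eminence are known for Adarb2, Prox1, Nr2f2, Sp8, Npas1 and Htr3a and include Vip cells, neurogliaform cells with Lamp5 and Reln, and Cck basket cells with Cnr1. Those of the medial ganglionic eminence are known for Lhx6, Sox6 and Satb1 and include Sst and Pvalb cells. Adarb2 encodes a brain protein of the RNA editing enzyme family for which no editing activity is known. Adarb2 lies on mouse chromosome 13 (GRCm38, chr13:8202866-8768747, + strand), Vip on chromosome 10 (chr10:5639218-5647617, + strand) and Erbb4, which encodes a neuregulin receptor of migrating and mature interneurons, on chromosome 1 (chr1:68032186-69108059, - strand).

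The Adarb2 nuclei held a median of 8363 UMIs (1714 to 42640) and 3261 genes, and together 15894589 UMIs. Library medians for these nuclei lay between 7852 and 8836 UMIs. Library 3 stood apart in the share and makeup of the Adarb2 nuclei, as given below. A count of 1264 barcodes of 75878 (1.67%) had their 16 bases in more than 1 library, among them 34 Adarb2 nuclei, and no such barcode was shared by a pair of Adarb2 nuclei. A score from simulated doublets put 15.7% of the Adarb2 nuclei among the 10% of highest score in their library, with 25.2% of Vip-positive and 14.7% of Vip 0 nuclei. Levels are given as CPM, the UMIs of a gene scaled by all UMIs of the summed nuclei, and all intervals are 95% exact intervals that cover counting error only.

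Adarb2 was part of the rule, so its level is no check of the label, and other genes known from the caudal lineage were examined instead. Among Adarb2 nuclei, 95.5% held an Erbb4 UMI, 30.1% a Prox1 UMI, 18.5% an Nr2f2 UMI, 17.4% an Npas1 UMI, 5.19% an Sp8 UMI and 2.65% an Htr3a UMI. A nucleus with 0 UMIs of such a low gene may still express it, so these shares do not give the share of caudal nuclei. Excitatory nuclei (at least 3 Slc17a7 UMIs and at most 1 of Gad1 and Gad2 together, 4766 nuclei) were set beside them. They are not a clean background for all of these genes, since dentate granule neurons use Prox1 and some excitatory neurons express Nr2f2. The same shares were 68.7% for Erbb4, 8.71% for Prox1, 9.80% for Nr2f2, 1.91% for Npas1, 0.315% for Sp8 and 0.189% for Htr3a, at a higher median depth of 11470 UMIs. Nuclei with at least 5000 UMIs were also thinned to that number, which left out 289 Adarb2 and 338 excitatory nuclei. In the 1408 and 4428 thinned nuclei, the shares in Adarb2 and excitatory nuclei were 92.0% and 45.2% for Erbb4, 22.4% and 4.47% for Prox1, 11.9% and 4.72% for Nr2f2, 12.6% and 0.836% for Npas1, 3.05% and 0.158% for Sp8, and 1.35% and 0.0903% for Htr3a.

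Transcription factors known from subcortical and olfactory GABAergic neurons were found beside the caudal ones. Meis2 was at 880 CPM in Adarb2 nuclei (interval 865 to 894) and 250 in excitatory nuclei, Pbx3 was at 694 and 62.1 CPM, and Tshz1 was at 140 and 18.8 CPM. Library 3 carried much of these levels, and without it Meis2 was at 517 CPM, Pbx3 at 453 and Tshz1 at 82.9 in the Adarb2 nuclei. A Pbx3 UMI was present in 65.6% of Adarb2 and 36.8% of excitatory nuclei, and a Tshz1 UMI in 43.7 and 17.7%. At 5000 UMIs per nucleus these shares were 55.5 and 20.2% for Pbx3 and 31.5 and 8.38% for Tshz1. Foxp2 was found in 29.8% of thinned Adarb2 nuclei (27.4 to 32.2%) and 25.9% of thinned excitatory nuclei (24.6 to 27.2%), against 38.6 and 37.9% before thinning. With Foxp2 in that many excitatory nuclei, they are not a clean background for it. Meis2 was found in 49.1 and 54.2% of thinned nuclei and in 59.4 and 69.4% before thinning. This goes against its CPM, so no order is read from the Meis2 shares and a Meis2 UMI in a nucleus is not read as expression. The nuclei are therefore called Adarb2 nuclei by their rule, and no origin is given to all of them.

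The share of Adarb2 nuclei was 1.84, 2.14, 3.17, 1.98, 2.00 and 2.11% in libraries 1 to 6, with 253, 345, 469, 241, 216 and 173 nuclei. Library 3 was highest, and its interval (2.89 to 3.47%) did not overlap that of any other library. Without library 3 the pooled share was 2.01%.

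**Figure D1:**
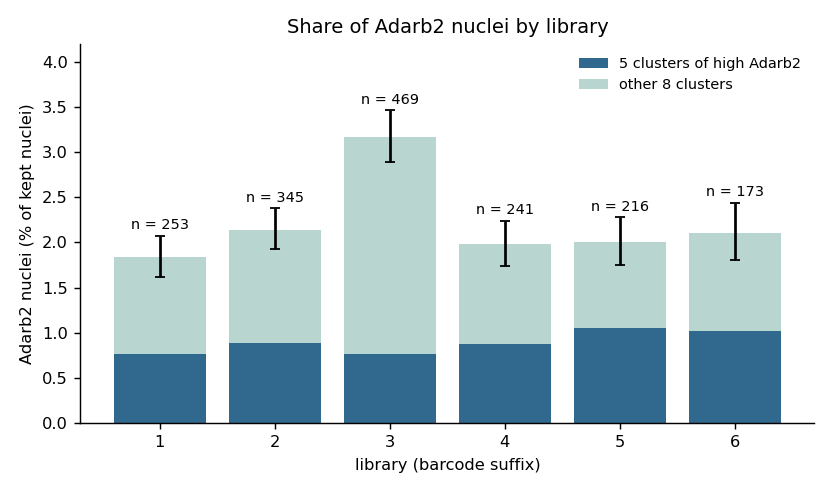
Adarb2 nuclei as percent of the kept nuclei in each of the 6 libraries, with exact 95% intervals of the whole bar and the number of nuclei above. The dark part, the 5 clusters of high Adarb2, lies between 0.757 and 1.05% in all libraries, and the light part, the other 8 clusters, is tallest in library 3.

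The rule set a threshold of 10 Adarb2 UMIs, and the nuclei on either side of it are given as values. At 10 UMIs, just inside, 56 nuclei had Meis2 at 1585 CPM, Erbb4 at 2252 and Prox1 at 27.3. At 9 UMIs, just outside, 68 nuclei had Meis2 at 1526 CPM, Erbb4 at 3140 and Prox1 at 31.7. Above the threshold the gene content moved with the Adarb2 count. The 402 nuclei with 10 to 19 Adarb2 UMIs had Meis2 at 1357 CPM and Prox1 at 20.9, the 525 with 20 to 49 had 1130 and 45.6, the 383 with 50 to 99 had 815 and 72.4, and the 387 with 100 or more had 344 and 119. Erbb4 went from 2835 CPM in the lowest of these bands to 6924 in the highest, Npas1 from 8.24 to 89.6, Cnr1 from 32.7 to 273 and Reln from 185 to 920. Nr2f2 showed no such order, with 25, 24.3, 22.6 and 39.1 CPM from the lowest to the highest band. Without library 3, Meis2 was at 1065, 734, 326 and 137 CPM in these bands, lower by over 1.5 times in the upper 3. Vip was found in 3.73% of the nuclei of the lowest band and in 22.5% of those of the highest. Median depth moved with the bands too, from 6902 to 10421 UMIs, and its part in these differences was not tested.

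**Figure D2:**
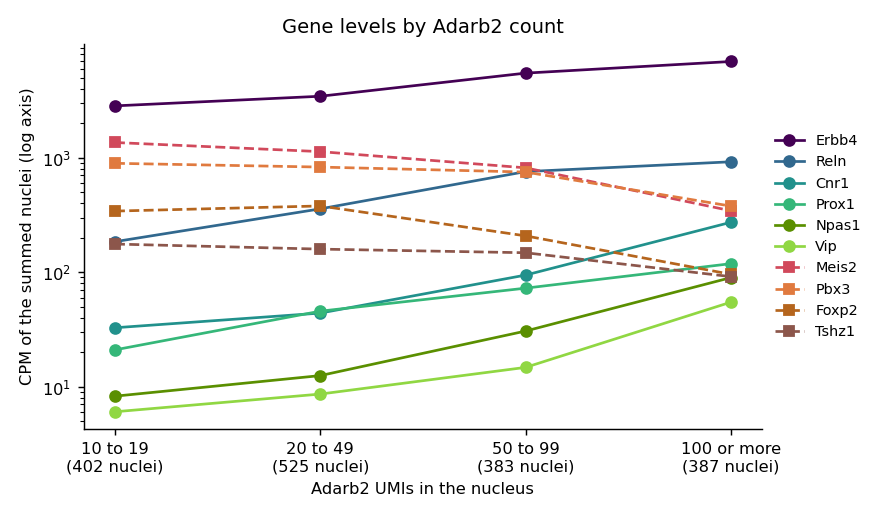
CPM of the summed nuclei (log axis) in 4 bands of Adarb2 UMIs per nucleus, with the number of nuclei under each band. Solid lines with circles, Erbb4, Reln, Cnr1, Prox1, Npas1 and Vip, go up with the Adarb2 count. Nr2f2, which showed no such order, is not drawn. Dashed lines with squares, Meis2, Pbx3, Foxp2 and Tshz1, end lowest in the band of 100 or more.

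Clustering of the Adarb2 nuclei alone gave 13 clusters, numbered by size. Each cluster is described here by its genes and no cluster was given a cell type. Clusters 1, 5, 6, 12 and 13 had a median above 50 Adarb2 UMIs per nucleus and held 662 nuclei, 39.0% of the Adarb2 nuclei (36.7 to 41.4%). Summed over these 5 clusters, Erbb4 was at 8347 CPM, Prox1 at 133, Npas1 at 81.1 and Reln at 1305, and in the other 1035 nuclei at 2901, 33.2, 15 and 190. Sp8 went the other way. An Sp8 UMI was present in 1.12% of thinned nuclei of the 5 clusters (0.41 to 2.4%) and 4.25% of the others (3.0 to 5.8%). For Nr2f2 and Htr3a these shares were 17.5 and 2.42% in the 5 clusters and 8.51 and 0.690% in the others. Meis2 was at 73.3 CPM in the 5 clusters and at 1302 in the others, or 68.5 and 795 without library 3, and Foxp2 was at 31.9 and 367. The 5 clusters were not alike in this. In cluster 1, which held 317 of the 662 nuclei, Prox1 (109 CPM) was above its level over all Adarb2 nuclei and Nr2f2, Sp8, Npas1 and Htr3a were not (25.9, 2.50, 2.08 and 0.417 CPM). At least 3 of these 5 genes were above that level in 5 clusters, namely 5, 6, 8, 12 and 13, with 460 nuclei (27.1%), so that cluster 8, of low Adarb2, was among them and cluster 1 was not. These levels follow from the same counts that made the clusters and are a description only. The lists below are counted by their genes at least 2-fold higher, with at least 10 UMIs, in a cluster than in the remaining Adarb2 nuclei. Beside each count stands the share of all 15788 genes with at least 20 UMIs that did the same. Genes at least 2-fold lower are given for some lists, without a minimum in the cluster, and their share of all genes was not counted.

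Cluster 6, with 116 nuclei and a median of 121 Adarb2 UMIs, was led by Grpr, which encodes the receptor of gastrin-releasing peptide, and by Vip, Mybpc1, Wnt5b and Col24a1. Vip was at 228 CPM there, and 76 of its 116 nuclei (65.5%) were Vip positive. It held the highest Prox1 of the 13 clusters, at 291 CPM, where the homeobox factor PROX1 is known to be needed for the maturation of caudal interneurons. Of 16 measured genes of the Vip subtype list, 11 were at least 2-fold higher than in the remaining Adarb2 nuclei, against 1.71% of all genes, among them Calb2, the acetylcholine enzyme Chat, Tac2, Cxcl14 and Igf1. So were 3 of 10 Cck basket genes, namely Trpc6, Adra1b and Vwc2, while 4 of the 10 were at least 2-fold lower. Reln, a secreted guide of neuron migration, was at 60.0 CPM there, against 573 over all Adarb2 nuclei.

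Cluster 1 was the largest, with 317 nuclei, and was led by A230001M10Rik, C87487, Crispld1, Pde11a and Gm16070. Of 16 measured genes of the Lamp5 and neurogliaform list, 12 were at least 2-fold higher there, against 3.05% of all genes. Reln was at 1953 CPM, the vesicle protein gene Sv2c at 501, the receptor tyrosine kinase gene Kit at 433 and the lysosomal membrane protein gene Lamp5 at 129. Vip was at 2.08 CPM in this cluster, and 5 of its nuclei were Vip positive.

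Cluster 5, with 126 nuclei, had the highest Adarb2, with a median of 213 UMIs. It was led by Slc17a8, which encodes the vesicular glutamate transporter VGLUT3 found in some Cck basket cells, and by Frem1, Yjefn3, Cadps2 and Col25a1. The cannabinoid receptor gene Cnr1 was at 681 CPM, against 118 over all Adarb2 nuclei, and 5 of 10 measured Cck basket genes were at least 2-fold higher, against 2.12% of all genes. So were 6 of 16 Vip subtype genes, namely Tac2, Htr3a, Igf1, Npy2r, Synpr and Sorcs3. Npas1, a basic helix-loop-helix factor of the caudal lineage, was at 212 CPM and Htr3a, a serotonin-gated channel gene, at 20.9. Cck itself was at 89.9 CPM, against 49.6 over all Adarb2 nuclei.

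The remaining clusters of high Adarb2 were small and held the most Nr2f2. Cluster 12 (58 nuclei) was led by Gm39185, Thsd7b, Thsd7a, Kcnc2 and Nrg3os, with Nr2f2 at 111 CPM and Reln at 1142. Cluster 13 (45 nuclei) was led by the relaxin receptor gene Rxfp1, by Ltbp1, Col14a1, Deptor and the nicotinic receptor gene Chrna7, with Nr2f2 at 129 CPM and Reln at 3021. Nr2f2 lay between 2.80 and 47.8 CPM in the other 11 clusters. In cluster 12, 6 of 16 Vip subtype genes were at least 2-fold higher, against 1.24% of all genes, namely Calb2, Cxcl14, Igf1, Npy2r, Synpr and Sorcs3. Of 16 Lamp5 and neurogliaform genes, Reln and Npas1 were at least 2-fold higher there and 9 were at least 2-fold lower. Of 18 medial genes, Sst, Kcnc2 and Grin3a were at least 2-fold higher and 6 were at least 2-fold lower. Sst was capped by the rule at 2 UMIs per nucleus, so its level is no finding. In cluster 13, 2 of 16 Vip subtype, 4 of 16 Lamp5 and neurogliaform and 3 of 10 Cck basket genes (Cnr1, Adra1b and Tnfaip8l3) were higher, against 1.29% of all genes. Of the same lists 2, 3 and 1 genes were at least 2-fold lower.

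By the count of genes at least 2-fold higher, the list of 20 caudal lineage factors did not separate the clusters of high Adarb2 from the rest. Its summed level was 4436, 8306, 5194, 7060 and 7179 CPM in clusters 1, 5, 6, 12 and 13, and 6926 in cluster 8. In the remaining clusters that sum lay between 1344 and 3398 CPM. Genes at least 2-fold higher were 5 of 20 in cluster 1 (Maf, Tox2, Tox3, Nfix and Nfib), against 3.05% of all genes. They were 6 in cluster 5 (2.12%), 2 in cluster 6 (1.71%), 4 in cluster 12 (1.24%) and 5 in cluster 13 (1.29%). In cluster 8 they were 13 of 20, the most of any cluster, against 9.92% of all genes, and included Sp8, Dlx1, Dlx2 and Sp9. Cluster 4 had 4 of 20 (Sp8, Dlx1, Zeb2 and Sp9), against 3.56% of all genes, and cluster 10 had 1, against 3.99%. Clusters 2, 3, 7, 9 and 11 had 0, against 1.67, 2.96, 2.21, 8.58 and 2.06% of all genes. Factors at least 2-fold lower were 3, 2, 4, 1 and 4 in clusters 1, 5, 6, 12 and 13. They were 7 in cluster 4, 4 in cluster 8 and 2 in cluster 10. In clusters 2, 3, 7, 9 and 11 they were 10, 14, 14, 6 and 2. These lower counts had no minimum in the cluster and no share of all genes beside them. They are therefore a description and are not set against the higher counts.

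Among the clusters of low Adarb2, clusters 4 and 8 held the most Meis2. Cluster 4 (175 nuclei) had Meis2 at 3949 CPM, Pbx3 at 2706 and Tshz1 at 672, and was led by Cpa6, D030025E07Rik, Lgr6, Frmd7 and Lgr5. Lgr6 and Lgr5, which encode receptors of R-spondins, were at 188 and 497 CPM there, against 4.75 and 20.4 in the remaining Adarb2 nuclei. Prox1 was at 8.08 CPM in cluster 4. Cluster 8 (115 nuclei) had Meis2 at 3981 CPM and all 10 genes of the young neuron list at least 2-fold higher, against 9.92% of all genes, among them the microtubule protein gene Dcx at 434 CPM. It was led by Draxin, 2610307P16Rik, Top2a, Igfbpl1 and Cdca7, and Top2a encodes the topoisomerase of dividing cells. Of 6 astrocyte markers, 5 were also at least 2-fold higher in cluster 8, and its median depth of 4297 UMIs was the lowest of the 13 clusters.

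Clusters 2, 3 and 7 each had other leading factors. Cluster 2 (202 nuclei) was led by Gm49906, Otof, 6530403H02Rik, Chst9 and Foxp2, with Foxp2 at 935 CPM and Meis2 at 1174. Cluster 3 (195 nuclei) was led by Pax3, Lhx1os, 2700069I18Rik, Otx2os1 and 1700042O10Rik, with the Wnt effector gene Tcf7l2 at 196 CPM, Erbb4 at 1167 and Prox1 at 12.1. Cluster 7 (116 nuclei) was led by the homeobox gene Gbx1, by Lhx8, Sfta3-ps, Slc25a13 and Cacna2d2, with the medial lineage factor Sox6 at 792 CPM, against 218 over all Adarb2 nuclei. Of 18 medial genes, 5 were at least 2-fold higher in cluster 7, against 2.21% of all genes, namely Lhx6, Pvalb, Sox6, Nkx2-1 and Elfn1, and 1 was lower. The rule left at most 1 Lhx6 UMI in a nucleus, so the part of Lhx6 in this count is no finding. In clusters 2, 3 and 7 none of Prox1, Nr2f2, Sp8, Npas1 and Htr3a was above its level over all Adarb2 nuclei.

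Clusters 9, 10 and 11 held markers of other cells beside Adarb2. Cluster 9 (82 nuclei) had all 6 astrocyte and 3 of 4 endothelial markers at least 2-fold higher, cluster 10 (81 nuclei) all 5 oligodendrocyte and all 5 microglia markers, and cluster 11 (69 nuclei) all 3 OPC markers. Of all genes, 8.58, 3.99 and 2.06% were at least 2-fold higher in clusters 9, 10 and 11. The top doublet scores took 82.9, 56.8 and 63.8% of their nuclei, against 1.59 to 20.3% in the other 10 clusters. The 3 clusters together held 232 Adarb2 nuclei (13.7%), and without them the Adarb2 nuclei were 1.93% of kept nuclei. Whether these droplets held more than 1 nucleus was not tested beyond the score.

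**Figure D3:**
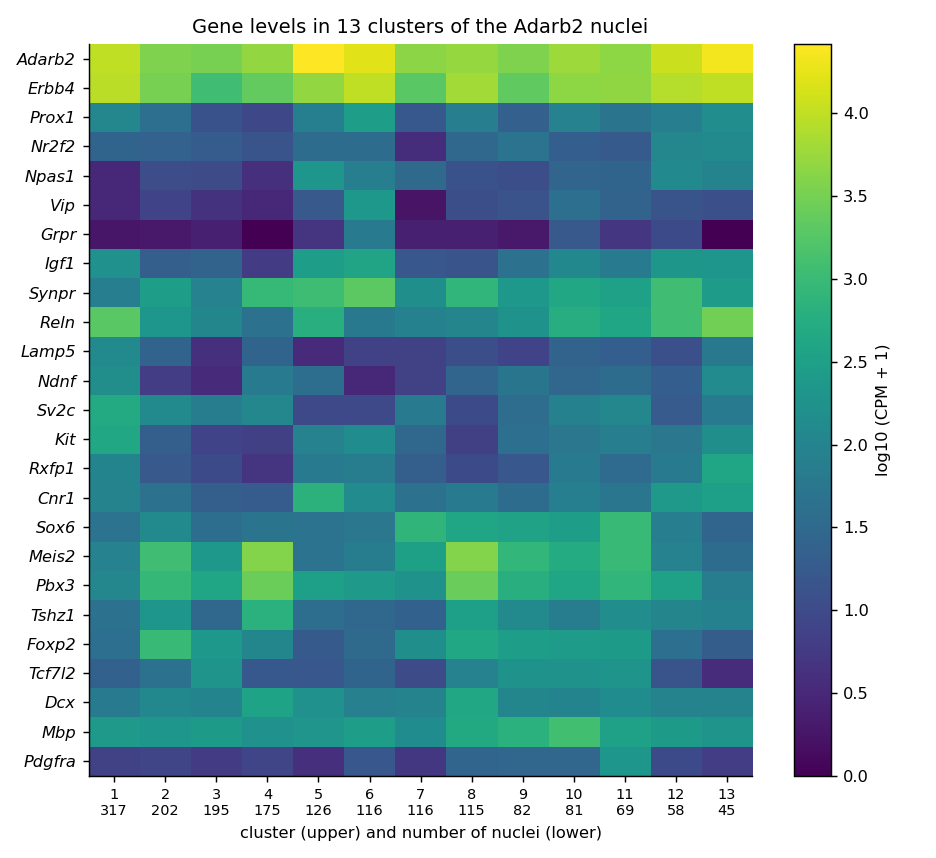
Level of 25 genes, as log10 of CPM + 1 of the summed nuclei, in the 13 clusters of the Adarb2 nuclei, with the number of nuclei under each cluster. Reln is highest in clusters 1 and 13, Vip and Grpr in cluster 6, Cnr1 in cluster 5, and Meis2 and Pbx3 in clusters 4 and 8.

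In 3 of the 13 clusters the share of 1 library stood apart from the other 5 by Dixon's criterion, namely clusters 4 and 8 in library 3 and cluster 7 in library 6. Cluster 8 was 0.291% of all nuclei in library 3 and at most 0.143% in the others, and cluster 7 was 0.243% in library 6 and at most 0.167%. Cluster 4 took 143 of its 175 nuclei from library 3 and 0 from library 1, where a count of 0, taken as a limit of 3 nuclei of 13773, allows up to 0.0218%. Cluster 4 was 0.967% of all nuclei in library 3 and 0.106, 0.0246, 0.0649 and 0.0609% in libraries 2, 4, 5 and 6. The clusters of high Adarb2 did not follow this pattern. They were 0.762, 0.881, 0.757, 0.870, 1.05 and 1.02% of all nuclei in libraries 1 to 6, and library 3 had the lowest of these values. As a share of the Adarb2 nuclei they were 41.5, 41.2, 23.9, 44.0, 52.3 and 48.6%.

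**Figure D4:**
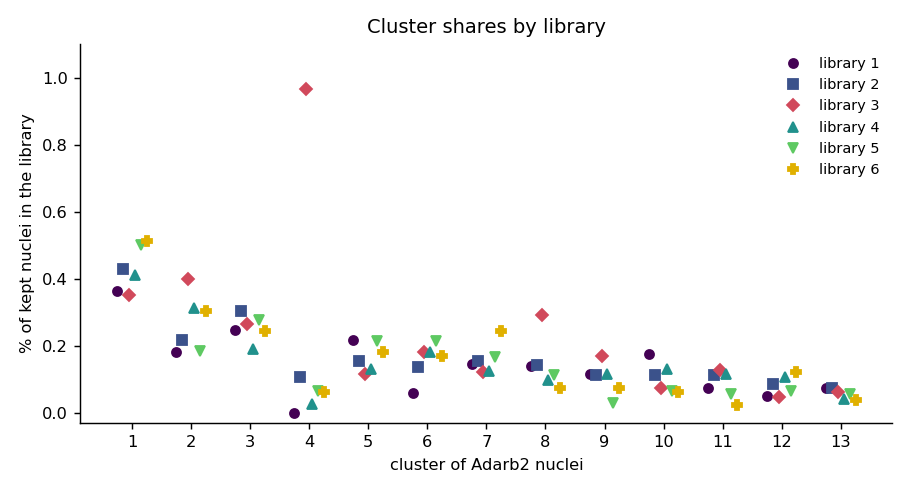
Nuclei of each of the 13 clusters as percent of the kept nuclei of a library, with 1 symbol per library. Cluster 4 in library 3, at 0.967%, lies far from the other 5 libraries, which reach 0.106%.

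The same library led the genes of cluster 4 over all Adarb2 nuclei. Meis2 was at 476, 590, 1891, 629, 343 and 495 CPM in libraries 1 to 6, so that library 3 was highest and the others lay between 343 and 629. Pbx3 lay at 1365 CPM in library 3 and between 350 and 529 in the others, and Tshz1 at 301 and between 71.1 and 97.3. Sp8, a zinc finger factor that both caudal interneurons and olfactory bulb interneurons use, was at 11 CPM in library 3 and between 4.61 and 5.57 in the others, and it was at 63.5 CPM in cluster 8 and 16.2 in cluster 4. Adarb2 (7003 CPM), Erbb4 (4153), Prox1 (43.8), Npas1 (25.3) and Reln (395) were all lowest in library 3.

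Npc1, the gene that the study disrupted, was at 31.9 CPM in the Adarb2 nuclei (29.2 to 34.8), with 26.2, 31 and 37.5 CPM as the lowest, median and highest library. It was not used to assign libraries to mice. None of 10 genes of lysosomal cholesterol transport and of 20 tested of cholesterol synthesis was called between Vip-positive and Vip 0 nuclei by the rule given below, against 0.782% of all genes higher and 1.24% lower, so that few calls could arise in lists of this size. In Adarb2 over Lhx6 nuclei 1 of the 20 was higher, namely Fdps, the farnesyl diphosphate synthase gene (22.6 against 10.0 CPM, log2 ratio 1.17, with an interval from -0.20 to 3.05 that holds 0), against 4.5% of all genes.

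Vip, the vasoactive intestinal peptide gene, was found in 9.37% of the Adarb2 nuclei (8.02 to 10.9%). The share was 6.72, 13, 7.89, 7.88, 10.6 and 10.4% in libraries 1 to 6, and the interval of the lowest (3.96 to 10.5%) overlapped that of the highest (9.68 to 17.1%). Of the 159 Vip-positive nuclei, 81 held 1 Vip UMI, and the highest count was 17. Excitatory nuclei held a Vip UMI in 2.50% of cases. At 5000 UMIs per nucleus the share was 7.03% in the 1408 Adarb2 nuclei deep enough (5.75 to 8.49%), where it was 9.94% before thinning, 0.926% in excitatory and 2.78% in Lhx6 nuclei, the last from 1 of 36. Within the clusters of high Adarb2 the thinned share was 12.1%, and in the other clusters 3.91% (2.72 to 5.42%).

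Of the 159 Vip-positive nuclei, 97 (61.0%) lay in the clusters of high Adarb2, 76 of them in cluster 6. The other 62 were spread over the other clusters, with 17 in cluster 10, 11 in cluster 2, 9 in cluster 11 and 8 in cluster 9. Vip-positive nuclei had a median of 118 Adarb2 UMIs and Vip 0 nuclei of 41, at median depths of 8959 and 8288 UMIs. As Adarb2 counts chose the nuclei, these Adarb2 medians are a description only. A Prox1 UMI was present in 55.7% of thinned Vip-positive nuclei and 18.8% of thinned Vip 0 nuclei, and a Meis2 UMI in 37.1 and 50.4%, over 140 and 1268 nuclei. No order is read from these Meis2 shares either. Before thinning, a Meis2 UMI was held by 82.3% of the Adarb2 nuclei in library 3 and by 38.9 to 66.8% in the others.

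Vip-positive and Vip 0 nuclei were compared by their summed UMIs over 11255 genes with at least 100 UMIs. A gene is called higher or lower where it differed at least 2-fold and in the same direction in 6 of 6 libraries. By this rule 88 genes were higher in Vip-positive nuclei (0.782%) and 140 were lower (1.24%). With the median gene set equal in both classes the split was 106 higher and 103 lower. In the clusters of high Adarb2 alone, only 38 of the 88 and 33 of the 140 were called again. The libraries are not replicates of a group, so these calls carry no p-value. Of the 88, 9 met the minimum of 100 UMIs only through their level in Vip-positive nuclei, and of the 140, 76 only through that in Vip 0 nuclei, so such genes could be tested only if they differed.

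Mybpc1, which encodes a myosin-binding protein, had the highest ratio among the genes tested, after Vip itself. It met the minimum count only through Vip-positive nuclei, as did Grpr, Col24a1 and Col15a1, and their place at the top holds for genes past that minimum. The lowest, median and highest library values of Mybpc1 were 32.4, 51.1 and 71.8 CPM in Vip-positive nuclei and 1.01, 1.54 and 3.64 in Vip 0 nuclei, without overlap. The log2 ratio was 4.55 (3.92 to 5.22), from 78 and 29 UMIs. Grpr was at 41.6 CPM against 2.59 (log2 ratio 4.0, 3.41 to 4.62), with a lowest Vip-positive library of 21.1 CPM and a highest Vip 0 library of 5.74.

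Wnt5b, a Wnt ligand gene, was at 139 against 17.7 CPM (log2 ratio 2.98), the collagen genes Col24a1 and Col15a1 had log2 ratios of 3.09 and 2.79, and Rspo2, whose protein strengthens Wnt signals, had 2.38. Of these, Rspo2 alone overlapped between the classes, with 11.7 CPM in the lowest Vip-positive library and 14.6 in the highest Vip 0 library. The synaptic protein gene Elfn1, known to set how synapses on interneurons facilitate, was at 143 against 36.5 CPM (1.97). Gpd1, Gm5087, Cp and Creb5 completed the 12 genes of highest ratio, with log2 ratios of 2.53, 2.20, 2.09 and 2.02.

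Receptors showed both directions. Adra1b, the alpha-1B adrenergic receptor gene, was at 99.9, 165 and 202 CPM in the lowest, median and highest Vip-positive library and at 23.4, 36.0 and 56.3 in Vip 0 nuclei, a log2 ratio of 2.13 (1.92 to 2.34). Chrm2, a muscarinic receptor gene, was at 86.3 against 197 CPM (-1.19) and the substance P receptor gene Tacr1 at 6.12 against 29.2 CPM (-2.26). Without library 5 Chrm2 was at -0.98, under the fold. Of 21 neuromodulator receptor genes tested, Adra1b and Grpr were higher, Chrm2 and Tacr1 were lower, against 0.782 and 1.24% of all genes. Grpr met the minimum count only through Vip-positive nuclei and Tacr1 only through Vip 0 nuclei, so these counts are a description. The median log2 ratio of the 21 genes was -0.20, against -0.083 over all genes.

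Genes of the caudal and Vip lists were described by the same rule. Of 17 Vip subtype genes 8 were tested and 4 were higher, beside 0.782% of all genes. As Grpr, one of these 4, was tested only for its level in Vip-positive nuclei, the count is given as a description. The median log2 ratio was 1.01 over these 8 and 0.20 over the 17 caudal factors tested, against -0.083 over all genes. Synpr, a synaptic vesicle protein gene, was at 1330 against 400 CPM (log2 ratio 1.73), the growth factor gene Igf1 at 284 against 83.7 (1.76) and the sorting receptor gene Sorcs3 at 1243 against 593 (1.07). Prox1 was the 1 caudal factor of 17 that was higher, with 163, 191 and 223 CPM in the lowest, median and highest Vip-positive library and 33.0, 58.8 and 72.4 in Vip 0 nuclei. Its log2 ratio was 1.82 (1.63 to 2.02), and the classes did not overlap. Tox2 and Tox3 were lower, at -1.04 and -1.27, and Tox2 was at -0.88 without library 1 and without library 5. Erbb4 was at 7456 against 4465 CPM (0.74), under the 2-fold of the rule. Adarb2 was at 13985 against 7623 CPM (0.88), but its counts chose the nuclei, so its ratio is a description only.

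Of 15 genes tested of the Lamp5 and neurogliaform list, 4 were lower, against 1.24% of all genes, and 0 were higher. Their median log2 ratio was -0.43. Reln was at 111, 183 and 319 CPM in the lowest, median and highest Vip-positive library and at 413, 668 and 829 in Vip 0 nuclei, a log2 ratio of -1.70 (-1.87 to -1.54) without overlap. Sv2c was at 31.8 against 145 CPM (-2.19), Ndnf at 13.5 against 48.6 (-1.85, and -2.49 without library 5) and Lamp5 at 14.1 against 33.6 (-1.25, and -1.84 without library 2). Of 13 subcortical genes tested, with a median of -0.64, Meis2 (-1.52) and Tshz1 (-1.26) were lower, while Pbx3 (-0.92) and Foxp2 (-0.91) were not past the fold. Meis2 overlapped between the classes, with 694 CPM in the highest Vip-positive library and 370 in the lowest Vip 0 library. Without library 3, Meis2 was at -1.26 and Tshz1 at -0.90, under the fold.

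The 12 genes of lowest ratio rested on few UMIs in Vip-positive nuclei, and 11 of them, all but Lgr5, met the minimum count only through Vip 0 nuclei. Lgr5 had 19 UMIs there and 955 in Vip 0 nuclei (log2 ratio -2.53, -3.26 to -1.87), Tacr1 10 and 417, Slc25a13, which encodes a mitochondrial aspartate-glutamate carrier, 7 and 392, and Lgr6 5 and 320. Adamts19 and Lhx8 had 3 UMIs each, with log2 ratios of -3.44 (-5.73 to -1.88) and -2.39 (-4.68 to -0.81). 1700042O10Rik had 1 UMI (-3.66, -8.97 to -1.15), Ddr2 2, Gm5149 2, Gm49171 4, Gm26713 4 and Col8a1 6. Library 3 carried the Vip 0 levels of Lgr5, Lgr6 and Adamts19, which were 67.0, 22.4 and 20 CPM over all libraries and 26.0, 7.68 and 7.68 CPM without it. The log2 ratio without library 3 was -1.60 for Lgr5 and -1.72 for Lgr6. Without library 2, 1700042O10Rik had 0 UMIs in Vip-positive nuclei, Slc25a13 was at -3.79 and Gm26713 at -1.71, and without library 3 Ddr2, Gm5149, Gm49171 and Col8a1 were at -3.54, -3.67, -3.60 and -3.12. Lgr6 and Lgr5 are among the leading genes of cluster 4, 1700042O10Rik of cluster 3, and Lhx8 and Slc25a13 of cluster 7.

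**Figure D5:**
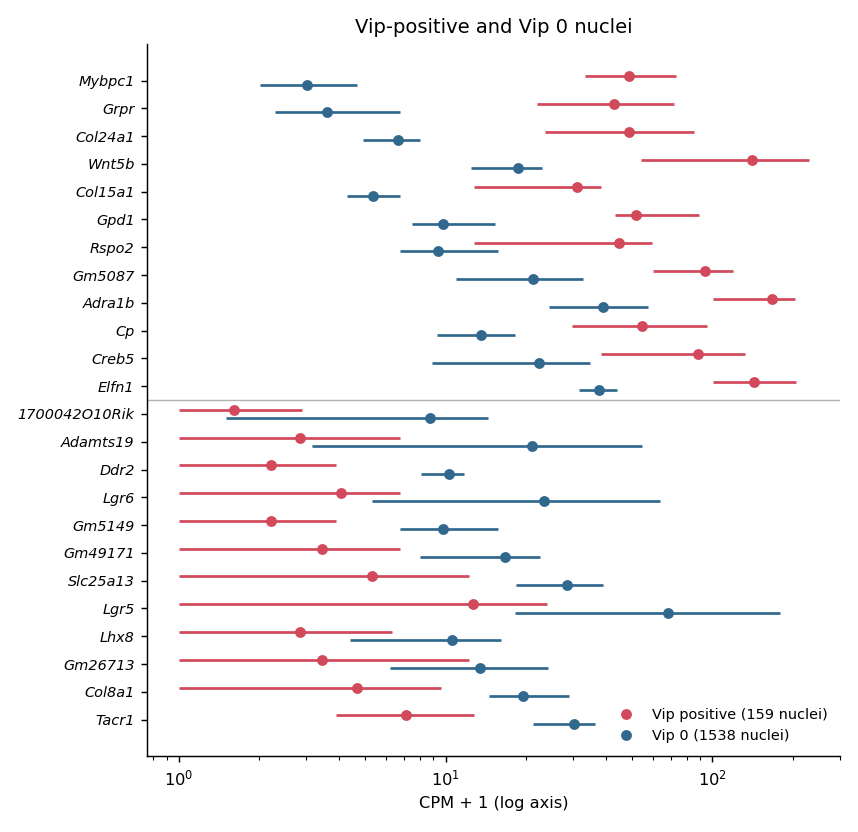
CPM + 1 (log axis) of the 12 genes of highest and the 12 of lowest ratio in Vip-positive over Vip 0 nuclei, with a point for the summed nuclei and a line from the lowest to the highest of 6 libraries. The genes were picked by ratio and by the same direction in 6 of 6 libraries, so gaps between their lines are a description only. Among the upper 12 genes the lines of Rspo2 overlap. In the lower 12 genes most Vip-positive lines begin at 0 CPM.

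Ion channel and adhesion genes were called in both directions, to be read against 0.782% of all genes higher and 1.24% lower. Of 25 ion channel genes, with a median log2 ratio of -0.025, Kcnt2 (754 against 255 CPM, log2 ratio 1.56) and Kcnmb2 (683 against 341 CPM, 1.00) were higher. Kcnc4 (3.67 against 9.12 CPM, -1.31, from 6 UMIs) was lower. It met the minimum count only through Vip 0 nuclei and could be tested only if it differed, so its call is a description. Of 26 adhesion and ErbB4 signalling genes, with a median of -0.0034, the contactin gene Cntn4 (1941 against 888 CPM, 1.13) and the cadherin gene Cdh12 (637 against 309 CPM, 1.04) were higher and the netrin receptor gene Unc5d (432 against 968 CPM, -1.16) was lower. With 1 library left out, Kcnmb2 (0.85 without library 3), Cdh12 (0.96 without library 1) and Kcnc4 (-0.99 without library 5) were under the fold, and Kcnc4 was at -2.27 without library 2. None of 15 glutamate receptor genes, 5 genes of GABA synthesis, release and uptake and 5 neuropeptide genes was called. The neuropeptide gene Cck was at 49 against 49.7 CPM, and Calb2, the gene of the calcium-binding protein calretinin that some Vip cells hold, at 26.9 against 14 CPM, the latter 9.12 without library 3.

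Markers of other cells were present in both classes. The 5 oligodendrocyte markers summed to 1016 CPM in Vip-positive and 552 in Vip 0 nuclei, with library values of 64.6 to 2257 and 133 to 1119, and their median log2 ratio was 1.25 with 0 of 5 called. The 6 astrocyte markers summed to 753 and 611 CPM, the 5 microglia markers to 135 and 91.2, the 3 OPC markers to 91.2 and 88.4, the 4 endothelial markers to 111 and 124, and no marker was at 0. Without clusters 9, 10 and 11 the sums were 462 and 397 CPM for oligodendrocyte, 646 and 449 for astrocyte, 79.6 and 69.5 for microglia, 51.4 and 56.7 for OPC and 104 and 89.96 for endothelial markers. The difference in the astrocyte sum was thus wider without those clusters, and those of the OPC and endothelial sums changed direction. Without those clusters 84 genes were higher in Vip-positive nuclei, 69 of them among the 88, and 176 were lower, 84 of them among the 140.

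Adarb2 nuclei were set beside Lhx6 nuclei, which held at least 3 Lhx6 UMIs, under 10 Adarb2 UMIs and the same limits for Gad1, Gad2, Rgs9 and the glutamate transporters. Only 38 nuclei met this, 3 to 12 per library, with 398078 UMIs. Of 11327 genes, 510 were higher in Adarb2 nuclei (4.5%) and 81 were lower (0.715%) by the rule above, while the median gene had a log2 ratio of 0.14, so that values are read against that shift. With the median gene set equal in both classes the split was 383 higher and 115 lower. Of the 510, 235 met the minimum count only through Adarb2 nuclei, 278 had under 4 UMIs in the Lhx6 nuclei, and the counting interval lay above 0 for 346. Of the 81 lower genes it lay below 0 for 80. Adarb2, Lhx6 and Sst chose the classes and are no finding. The 5 oligodendrocyte markers summed to 600 CPM in Adarb2 and 289 in Lhx6 nuclei, the 3 OPC markers to 88.7 and 25.1, the 5 microglia markers to 95.6 and 70.3, the 6 astrocyte markers to 626 and 512 and the 4 endothelial markers to 122 and 57.8. By the rule for genes, 2 of 5 oligodendrocyte (Mobp and Mbp), 2 of 3 OPC (Pdgfra and Vcan) and 1 of 5 microglia markers (C1qa) were higher in Adarb2 nuclei, against 4.5% of all genes, and 0 of the astrocyte and endothelial markers. Pdgfra was at 0 in the Lhx6 nuclei. Pdgfra and C1qa met the minimum count only through Adarb2 nuclei and could be tested only if they differed, so these counts are a description. The part of other cells in this comparison was not tested. Without clusters 9, 10 and 11, 421 genes were higher in Adarb2 nuclei and 88 lower.

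Of 12 genes of the medial lineage tested, 6 were lower in Adarb2 nuclei, against 0.715% of all genes, and 0 were higher. Their median log2 ratio was -1.34, against 0.14 over all genes. Sox6 was at 190, 209 and 256 CPM in the lowest, median and highest library of Adarb2 nuclei and at 664, 873 and 1372 in Lhx6 nuclei (log2 ratio -1.97), without overlap. The chromatin organizer gene Satb1 was at 57.9 against 322 CPM (-2.47), Kcnc2, a fast potassium channel gene, at 674 against 3489 (-2.37) and the neurexophilin gene Nxph1 at 990 against 3648 (-1.88). Oprd1, the delta opioid receptor gene, had the lowest ratio, at 10.6 against 118 CPM (-3.47, -3.95 to -2.97), followed by the transcription cofactor gene Eya4 at 24.2 against 214 CPM (-3.14).

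Some members of the caudal, neurogliaform and subcortical lists were higher, against 4.5% of all genes. The median log2 ratios of the 3 lists were 0.29, 1.41 and 1.39, against 0.14 over all genes. Of 17 caudal factors tested, 5 were higher, namely Prox1 (67.6 against 12.6 CPM, log2 ratio 2.43, 1.20 to 4.05), Nfix (91.8 against 25.1, 1.87), Nfib (626 against 201, 1.64), Dlx6os1 (375 against 148, 1.34) and Nr2f2 (28.3 against 12.6, 1.17, with an interval from -0.061 to 2.80 that holds 0). Without library 3, Nr2f2 was at 0.63, under the fold, while Prox1 was at 3.38 and Nfix at 3.06, from 2 and 3 UMIs in the Lhx6 nuclei. Of 15 Lamp5 and neurogliaform genes 6 were higher, among them Sv2c (133 against 30.1 CPM, 2.15). Of 13 subcortical genes 5 were higher, with Foxp2 at 252 against 20.1 CPM (3.65, 2.67 to 4.86) and Meis2 at 880 against 82.9 CPM (3.41, 2.92 to 3.95). Without library 3, Meis2 was at 517 against 58.6 CPM (3.14). Of these, Ndnf, Pax6 and Tcf7l2 met the minimum count only through Adarb2 nuclei. In the clusters of high Adarb2 alone, Meis2 was at 73.3 CPM and Foxp2 at 31.9 CPM.

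The other genes of highest ratio had 1 or 2 UMIs in the Lhx6 nuclei, so that their size is loose, and 11 of the 12 highest met the minimum count only through Adarb2 nuclei. The orexin receptor gene Hcrtr2 had 1211 UMIs in Adarb2 nuclei and 1 in Lhx6 nuclei (log2 ratio 4.92, 2.44 to 10.2), and the semaphorin gene Sema3c had 1672 and 2 (4.39, 2.53 to 7.43). Without library 4, Hcrtr2 had 0 UMIs in Lhx6 nuclei and Sema3c had 1 (5.16). Erbb4, a marker named with the Adarb2 nuclei, was not higher in them. It was at 4153, 4892 and 5785 CPM in the lowest, median and highest library of Adarb2 nuclei and at 4950, 7936 and 13787 in Lhx6 nuclei, a log2 ratio of -0.79 (-0.84 to -0.74), with overlap.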

How the data were processed

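Nuclei of forebrain from 6 mice, 3 WT and 3 Npc1-/-, were profiled on the 10x Genomics Chromium platform. The authors deposited UMI counts as whole numbers, not normalized, in 1 matrix that joins 6 libraries (Cell Ranger 6.0.0 per the file headers). The submitters' processing notes name Cell Ranger 2.1.1 and mm10, and the study's methods name STARsolo and GRCm38, with removal of empty droplets and multiplets. The sources used here do not say which of these steps the matrix passed through. No key from barcode suffix to mouse was found, so the groups were not compared, and p-values were not computed.

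The 1697 Adarb2 nuclei were taken by the rule given in the results, after 11 barcodes with a mitochondrial share of 10% or more were left out of 75878. Adarb2, Gad1, Gad2, Lhx6, Sst, Rgs9, Slc17a6 and Slc17a7 counts chose the members. The members and the 22 gene lists were chosen with earlier results of these data known. UMIs were summed over the nuclei of a class, per library and over libraries, and scaled to CPM. Genes with at least 100 UMIs in both classes together were compared as a ratio of CPM with an exact binomial interval, and were called at 2-fold and the same direction in 6 libraries. Where a class had 0 UMIs, 3 were used for a bound. CPM carry exact Poisson and shares exact Clopper-Pearson intervals at 95%, for counting error only. Named genes were list members, the 12 highest and 12 lowest called ratios of each comparison with the genes of the rule left out, and the 5 genes of highest fold in each cluster.

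Adarb2 nuclei were clustered with scanpy 1.11.5 and the Leiden algorithm (leidenalg 0.10.2) on 2000 variable genes, 20 principal components and 15 neighbours at resolution 0.6, without integration across libraries. Doublets were not removed. Simulated doublets within each library gave each nucleus a score over 30 neighbours, and the 10% of highest score were left out in an alternative. The step for ratios was tested on simulated counts of the Vip comparison, with counting error only. The comparison with Lhx6 nuclei was not simulated. Gene positions are from GENCODE annotation of GRCm38. Python 3.11.15, numpy 2.4.6, scipy 1.17.1, pandas 2.3.3 and scikit-learn 1.9.0 were used. Alternatives to the thresholds, the scaling, the pooling, the libraries and the clusters are given in the closing section.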

Additional observations from a re-analysis of the deposited data

Results flagged for a closer look

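Each of 32 quantities was examined over the 6 libraries for a library whose gap to its nearest neighbour took more of the whole range than Dixon's 95% critical value, which chance gives in about 1 of 20 quantities. It was found in 9, several of which share the same nuclei. Library 3 lay highest in 7 of them. Adarb2 nuclei made up 3.17% of its kept nuclei, next to 2.14% in library 2. Cluster 4 made up 0.967% of kept nuclei in library 3, next to 0.106%, and cluster 8 made up 0.291%, next to 0.143%. In the Adarb2 nuclei of library 3, Meis2 was at 1891 CPM, next to 629, Pbx3 was at 1365 CPM, next to 529, Tshz1 was at 301 CPM, next to 97.3, and Sp8 was at 11 CPM, next to 5.57. The other findings were in different libraries. Cluster 7 made up 0.243% of kept nuclei in library 6, next to 0.167%, and Nr2f2 in the Adarb2 nuclei of library 4 was lowest at 18.9 CPM, next to 28.3. The cause of these differences was not tested, and the library cannot be told apart from its mouse or its genotype.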

How the results depend on the processing

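The share of Adarb2 nuclei (2.24%) moved with the rule, to 2.76% at 5 Adarb2 UMIs, 1.71% at 20 and 2.51% at 10 Adarb2 UMIs per 10000 UMIs of the nucleus. It was 2.1% without the 10% of highest doublet score, 1.93% without clusters 9, 10 and 11, 0.873% for the clusters of high Adarb2 alone, and 2.01 to 2.33% with 1 library left out. The Vip-positive share (9.37%) was 11.1% at 20 Adarb2 UMIs, 4.60% at 2 Vip UMIs, 7.03% at 5000 UMIs per nucleus in the 1408 nuclei of that depth, 14.7% in the clusters of high Adarb2 and 8.43 to 9.93% with 1 library left out. The genes higher in Adarb2 than in Lhx6 nuclei (510) were 332 for the clusters of high Adarb2, 212 of them among the 510, 383 with the median gene set equal, 228 at a minimum of 500 UMIs and 567 to 678 with 1 library left out, where only 5 libraries had to share a direction. With Lhx6 nuclei taken at 2 UMIs 542 were higher, of which only 185 were among the 510. The lower genes (81) were 153 with Lhx6 nuclei taken at 2 UMIs, 59 of them among the 81, and 100 to 117 with 1 library left out. The genes higher in Vip-positive nuclei (88) were 81 in the clusters of high Adarb2 alone, where 38 were shared, 95 at 2 Vip UMIs, where 61 were shared, 41 at a minimum of 500 UMIs and 85 to 92 with 1 library left out. The lower genes (140) were 179 in the clusters of high Adarb2, where 33 were shared, 228 without the highest doublet scores, where 75 were shared, 328 at 2 Vip UMIs, where 87 were shared, 285 with no minimum count, 45 at a minimum of 500 UMIs and 169 to 214 with 1 library left out, the highest of these without library 2. The fewer genes tested account for the counts at 500 UMIs. The cause of the other moves was not tested. Of 839 values of the 48 ratios named by rank under 19 alternatives, 776 stayed within their counting interval, 63 moved, and 0 turned direction. The minimum count sets which genes are tested and not their ratio. The values with no minimum count and at 500 UMIs are among the 776 and could not move. Ratios of few UMIs have wide intervals, so staying within them says little about their size. In the clusters of high Adarb2 alone 11 of 19 Vip and 12 of 24 Lhx6 ratios moved, 9 of 24 Vip ratios moved at 2 Vip UMIs, and 9 of 24 Lhx6 ratios moved at 2 Lhx6 UMIs. For 20 ratios the median of the 6 libraries and for 5 the clusters of high Adarb2 gave no value, because the UMIs were 0 or too few. At resolutions of 0.3 and 1.0 the clusters of high Adarb2 held 663 and 662 nuclei. The alternatives with clusters left out or alone, the minimum of 500 UMIs, both resolutions and the levels without library 3 were chosen after seeing the data. With 38 Lhx6 and 159 Vip-positive nuclei, genes of few UMIs limit these comparisons. No paired analysis was possible because the replicate numbers of the labels match no library, which holds for WT against Npc1-/-. Vip-positive and Vip 0 nuclei, and Adarb2 and Lhx6 nuclei, came from the same libraries and were set against each other within each by the rule of 6 libraries. No test over the libraries as replicates was run there, since no library is tied to a mouse or genotype.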
